A study of Mus musculus with 19 samples.

Results

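Adipocytes given stearic acid were compared with adipocytes given palmitoleic acid, a pair of fatty acids that differ in both respects the study varied. Stearic acid (SA) has 18 carbons and 0 double bonds, and palmitoleic acid (PMA, written PMO in the array titles) has 16 carbons and 1 double bond. The comparison took the 4 SA arrays and the 4 PMA arrays of the 19 arrays in the series and covered all 18820 genes with exactly 1 symbol in the probe annotation.

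All cells were 3T3-L1, an established line of mouse preadipocytes that turns into fat-storing adipocytes after dexamethasone, a phosphodiesterase inhibitor and insulin. Every group was kept without serum, with insulin, from day 7 of differentiation, and from day 8 was given for 48 h either an acid at 250 µM in ethanol, carried on 2% albumin, or ethanol and albumin alone (control, n = 4). The other acids were palmitic acid (PA, 16 carbons, 0 double bonds, n = 4) and oleic acid (OA, 18 carbons, 1 double bond, n = 3, since amplification failed for 1 replicate). Biotin-labelled RNA was hybridised to whole-transcript Affymetrix mouse arrays, and a level below is a log2 RMA value, so that a difference of 1 is a doubling. Arrays of a group are labelled as biological replicates, all of this 1 line, without a note of which cultures they came from, so a p-value measures the spread between these arrays.

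Long-chain fatty acids enter adipocytes, are activated to acyl-CoA esters and are stored as triglyceride, desaturated, elongated or oxidised. Saturated acids are known to raise inflammatory and stress signals in many cell types, and monounsaturated acids often oppose them. Palmitoleic acid is itself made in adipocytes by stearoyl-CoA desaturases and has been described as a signal from fat to other tissues.

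The cells carried the adipocyte programme under both acids. The mean level over 21 adipocyte markers ran from 10.93 to 11.01 on the SA arrays and from 10.93 to 10.98 on the PMA arrays. Adiponectin (Adipoq), the most abundant hormone of fat cells, stood at 12.29 with SA and 12.19 with PMA, and the adipocyte fatty acid binding protein Fabp4 at 12.37 and 12.33. The preadipocyte protein Dlk1 was also well expressed, at 11.56 and 11.65, and 21 preadipocyte and fibroblast markers averaged 8.63 to 8.65 and 8.66 to 8.76. Markers of macrophages and endothelium lay near the lower quartile of all values, 4.54, at 4.63 to 4.73 (SA) and 4.69 to 4.88 (PMA) for 13 macrophage markers and 4.58 to 4.77 and 4.57 to 4.85 for 7 endothelial ones.

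The 8 arrays correlated at 0.997 to 0.999, but PMA replicates 1 and 4 stood apart from the other 2 PMA arrays. Their median levels over genes were 6.08 and 6.06, against 5.93 and 5.97 for PMA replicates 2 and 3 and 5.96 to 5.99 for the SA arrays. They also held the highest scores, 17.1 and 11.9, on the second principal component of all 19 arrays, which carried 13.7% of the variance. Calls of SA minus PMA are therefore also given without these arrays, as the adjusted p of the same fit without PMA replicates 1 and 4. The median difference of all genes was -0.04 with all arrays and 0.01 without this pair, and 74.9% of all genes had a difference below 0 with all arrays against 47.1% without the pair.

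Between the acids 46 of 18820 genes (0.244%) passed an adjusted p of 0.05: 17 genes (0.0903%) were higher with SA and 29 (0.154%) were higher with PMA. The differences were small. Their median size was 0.38, from 0.21 to 1.01, only 4 genes exceeded 1.5-fold and 1 exceeded 2-fold. On all 46 the SA and PMA arrays did not overlap, as on 5.09% of all genes (0.887% with SA above and 4.2% with PMA above). An unadjusted p under 0.05 was reached by 1660 genes. The median standard error was 0.07, and the 95% interval of the difference lay within 1.5-fold either way for 18776 genes (99.8%) and within 1.2-fold for 14625 (77.7%). Just inside the threshold lay Adam19 (adjusted p = 0.0495) and Spry2 (0.0484), and among those just outside it were Hp (0.0514) and Tap1 (0.0516).

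**Figure D1:**
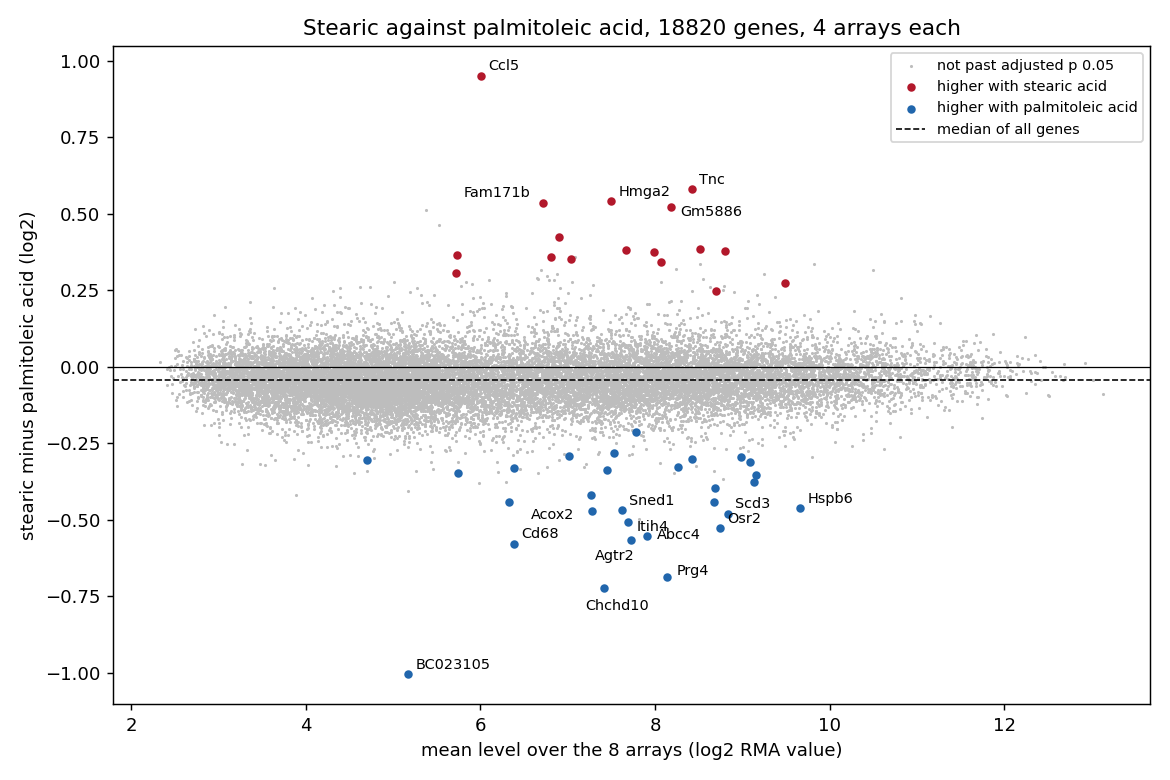
Difference between stearic and palmitoleic acid (log2, vertical axis) against the mean level over the 8 arrays (log2 RMA value, horizontal axis), 1 point per gene; coloured points passed an adjusted p of 0.05 (17 higher with stearic acid, 29 higher with palmitoleic acid). Ccl5 (0.95) and BC023105 (-1.01) lie farthest from 0, and the dashed median of all genes lies at -0.04.

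Fewer genes passed without the pair of raised PMA arrays, and no other pair of SA or PMA arrays was left out for comparison. Without PMA replicates 1 and 4, 6 genes passed: BC023105, Abcc4 and Scd3, higher with PMA, and Ccl5, Hmga2 and Tnc, higher with SA. All 46 genes kept their sign, their median size was 0.36, and 31 of them became smaller, 24 of the 29 higher with PMA and 7 of the 17 higher with SA. The smallest share kept was 0.63 (Cox6a2) and the largest 1.27 (Ereg). The median standard error rose to 0.08, since 2 PMA arrays remained. A call lost in this setting therefore need not mean a smaller difference. Of the 46 genes 15 had a larger one. Among these, Agtr2 (-0.57 with all arrays and -0.62 without the pair), Lep (0.34 and 0.38) and Slc7a11 (0.38 and 0.39) lost their calls. The split between the directions depended on scaling: after cyclic loess between the arrays 30 genes were higher with SA and 24 with PMA (55.6% higher with SA), after centring every array on its median 25 and 21 (54.3%), against 37.0% as deposited. Of the 46 genes, 37 were called after loess and 38 after centring. Tspan5, Mmp11, Sned1, Spry2 and Adam19 lost their calls after either, Angpt2, Cd74, Agtr2 and Osr2 after loess, and Gstm7, Shox2 and Lcn2 after centring. Each of the 19 arrays was also left out in turn, here and below, control, PA and OA arrays included, since all groups gave the spread. Then 16 genes kept their call throughout. The count fell by more than 1.5 times without SA replicate 3 (20 genes), SA replicate 2 (28) or PMA replicate 1 (29).

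Chemokines were the only list with more than 1 gene higher with SA. Of 33 chemokine and cytokine genes measured 3 rose with SA relative to PMA (Ccl5, Ccl2 and Ccl7) and 0 were higher with PMA. Over all genes these shares were 0.0903% and 0.154%. The list's median, -0.01, lay close to the -0.04 of all genes. Ccl5, a chemokine that draws T cells and monocytes, had the largest difference in this direction. It read 6.55, 6.60, 6.29 and 6.46 on the SA arrays (replicates 1 to 4 here and below) and 5.70, 5.53, 5.45 and 5.43 on the PMA arrays. The lowest SA array lay well above the highest PMA array. The difference was 0.95 ± 0.13 (SE), 1.93-fold (adjusted p = 0.000988, and at most 0.00846 with any 1 array left out; 0.99 ± 0.16 and adjusted p = 0.0349 without PMA replicates 1 and 4).

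Ccl7 and Ccl2 are monocyte chemoattractants whose genes are neighbours on the chromosome. Ccl7 (probe set 10379518) read 8.21, 8.04, 8.19 and 8.26 with SA and 7.85, 7.76, 7.84 and 7.75 with PMA, a difference of 0.37 ± 0.06 (adjusted p = 0.00877). Ccl2 (probe set 10379511) read 7.36, 6.90, 6.98 and 7.20 with SA and 6.61, 6.69, 6.81 and 6.62 with PMA. The closest pair of Ccl2 arrays, SA replicate 2 and PMA replicate 3, lay near each other, and SA replicate 1 was the highest. The Ccl2 difference was 0.42 ± 0.09 (adjusted p = 0.0404), which did not pass with any 1 of 8 arrays left out (at most 0.185, without PMA replicate 1). Set against control, Ccl7 was lower with PMA by -0.47 ± 0.06 (adjusted p = 0.00124) and differed by -0.10 ± 0.06 with SA (0.744). Neither Ccl7 nor Ccl2 passed without PMA replicates 1 and 4 (adjusted p = 0.19 and 0.719), where their differences were 0.37 ± 0.08 and 0.36 ± 0.11. Among members that did not pass, Il33 differed by 0.20, Il6 by 0.25 and Cxcl12 by -0.15 (adjusted p = 0.275, 0.453 and 0.374), and 26 Toll-like receptor and NF-kB genes had 0 calls in either direction and a median of -0.05.

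**Figure D2:**
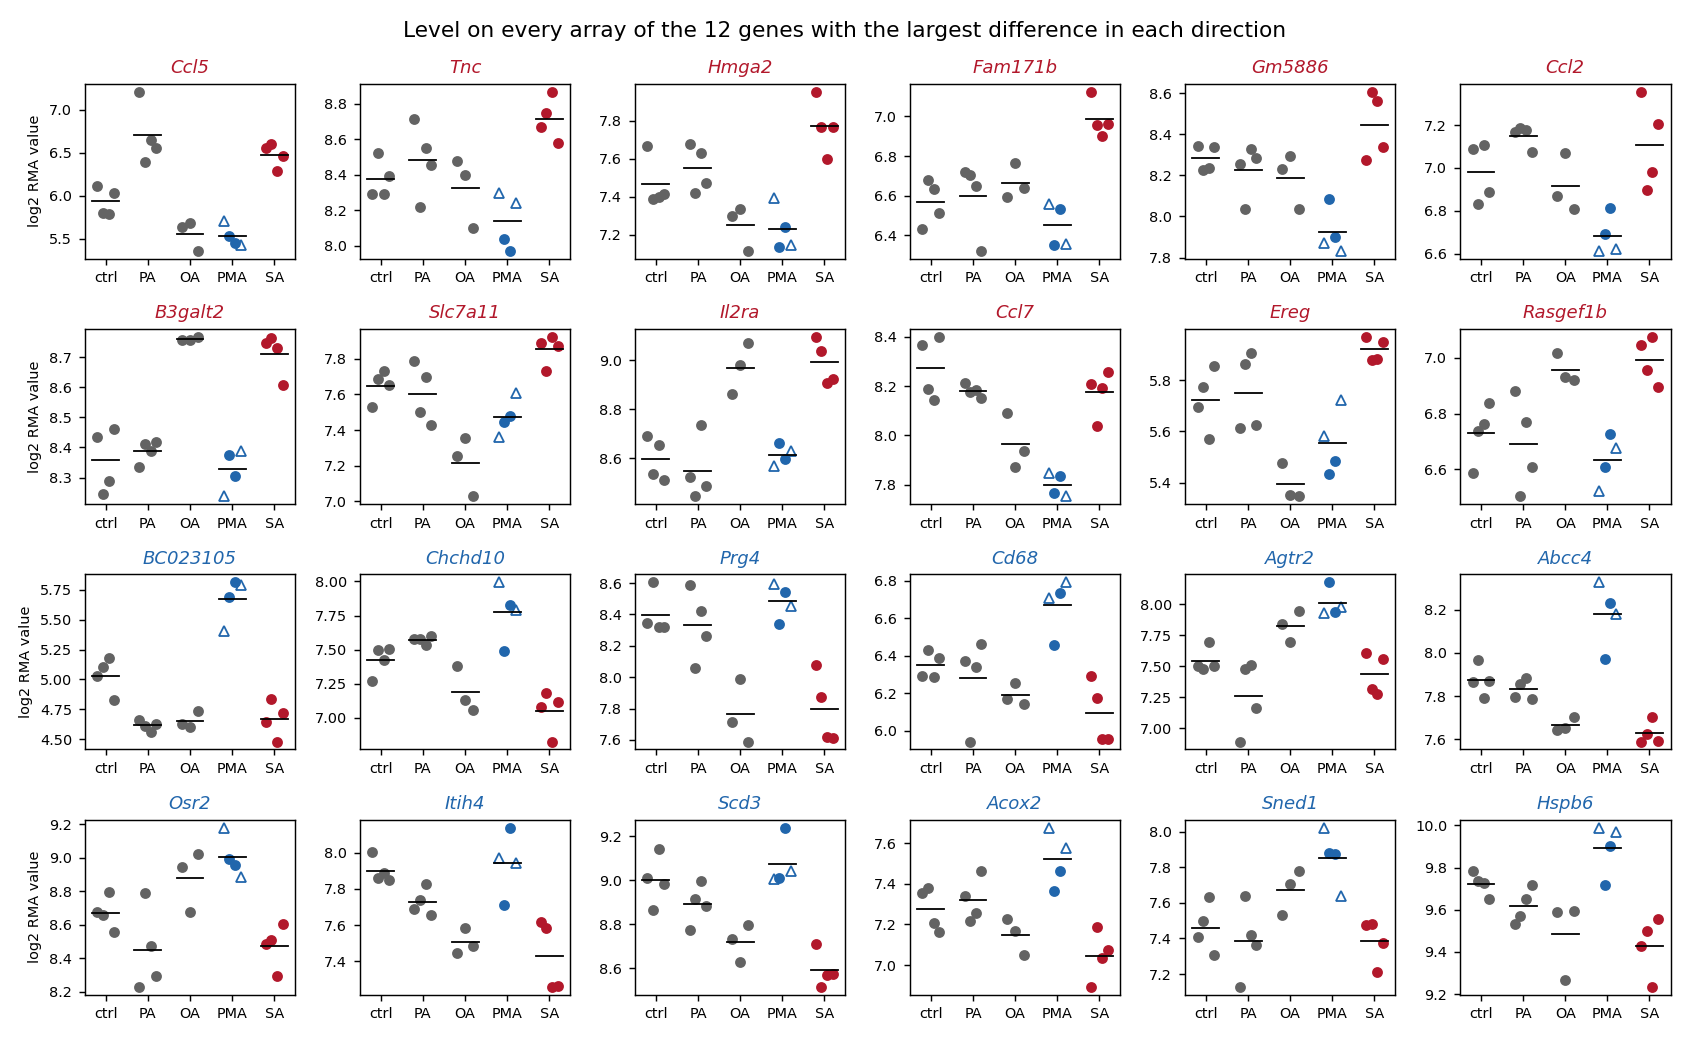
Level (log2 RMA value, vertical axes with their own ranges) on every array of control, palmitic (PA), oleic (OA), palmitoleic (PMA) and stearic acid (SA) for the 12 genes with the largest difference in each direction; bars are group means and open triangles are PMA replicates 1 and 4. In every panel the red SA points and the blue PMA points do not overlap, and BC023105 stands above the other 4 groups with PMA.

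Tnc, Hmga2 and Ereg were also higher with SA. Tenascin-C (Tnc), a matrix glycoprotein of remodelling tissue, read 8.67, 8.75, 8.87 and 8.58 with SA and 8.30, 8.03, 7.97 and 8.24 with PMA. Every SA array lay above every PMA array, with PMA replicates 1 and 4 the nearest. Its difference was 0.58 ± 0.10, 1.49-fold (adjusted p = 0.00905; 0.0581 without SA replicate 3), and without PMA replicates 1 and 4 it was 0.71 ± 0.12 (adjusted p = 0.0355). Tnc was the 1 call among 34 extracellular matrix genes, whose median was -0.03. Col8a1 had a difference of 0.36 (adjusted p = 0.111), Lox, which crosslinks collagen, 0.15 (0.503), and Col1a1, a chain of type I collagen, -0.13 (0.494).

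Hmga2, a chromatin protein of embryonic and proliferating mesenchymal cells, read 7.95, 7.77, 7.60 and 7.77 with SA and 7.39, 7.14, 7.24 and 7.15 with PMA. The difference was 0.54 ± 0.08, 1.45-fold (adjusted p = 0.00402), and 0.58 ± 0.10 without the raised PMA pair (0.0485). Epiregulin (Ereg), a ligand of the EGF receptor, read 5.97, 5.88, 5.88 and 5.95 with SA, in a narrow band, and 5.58, 5.43, 5.48 and 5.72 with PMA. Ereg differed by 0.36 ± 0.08 (adjusted p = 0.0433; lost with any 1 of 12 arrays left out, at most 0.155 without PMA replicate 3), the 1 call among 12 EGF family genes. Fam171b, a membrane protein, differed by 0.54 ± 0.08, and Gm5886 by 0.52 ± 0.08 (adjusted p = 0.00402 and 0.00454). Fam171b read 6.90 to 7.13 with SA and 6.35 to 6.56 with PMA, and Gm5886 8.27 to 8.61 and 7.83 to 8.09. Without the raised PMA pair Ereg, Fam171b and Gm5886 did not pass (adjusted p = 0.0712, 0.0712 and 0.229).

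Receptors and enzymes higher with SA included Il2ra, B3galt2, Rasgef1b and Ptgfr. Il2ra, the alpha chain of the interleukin-2 receptor, read 9.10, 9.04, 8.91 and 8.93 with SA and 8.57, 8.66, 8.60 and 8.63 with PMA. It differed by 0.38 ± 0.07 (adjusted p = 0.0103; 0.0532 without SA replicate 1 and 0.0505 without SA replicate 2). B3galt2, a galactosyltransferase of glycoprotein synthesis, read 8.61 to 8.76 and 8.24 to 8.39, a difference of 0.38 ± 0.06 (adjusted p = 0.00204). Rasgef1b, an exchange factor for Ras-like proteins, differed by 0.36 ± 0.07 (adjusted p = 0.0403; lost with any 1 of 11 arrays left out, at most 0.204 without SA replicate 3). Ptgfr, the prostaglandin F receptor, differed by 0.25 ± 0.05 (adjusted p = 0.0191; 0.132 without SA replicate 3, the highest of the 5 arrays whose removal ended the call) and was the 1 call among 16 prostaglandin genes. None of these 4 passed without PMA replicates 1 and 4 (adjusted p = 0.272 for Il2ra, 0.0507 for B3galt2, 0.557 for Rasgef1b and 0.195 for Ptgfr).

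Lipid genes of the adipocyte gave few calls, in both directions. Leptin (Lep), the satiety hormone of fat cells, read 8.20, 8.31, 8.19 and 8.24 with SA and 7.92, 7.81, 7.90 and 7.94 with PMA. The difference of 0.34 ± 0.06 (adjusted p = 0.0143; 0.0711 without SA replicate 2, and lost without PMA replicate 2 as well) was the 1 call among 21 adipocyte markers, whose median was 0.01. Pnpla3, a lipid droplet acylhydrolase that responds to lipogenic signals, differed by 0.27 ± 0.05 (adjusted p = 0.013; 0.0673 without PMA replicate 4, and lost also without SA replicate 1 or 2), the 1 call among 18 genes of de novo lipogenesis. Without PMA replicates 1 and 4 neither Lep nor Pnpla3 passed (adjusted p = 0.155 and 0.339).

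Scd3, a stearoyl-CoA desaturase isoform known to act on palmitoyl-CoA and so to make palmitoleate, was lower with SA. It read 8.71, 8.52, 8.57 and 8.57 with SA and 9.01, 9.01, 9.24 and 9.04 with PMA. The difference was -0.48 ± 0.07 (adjusted p = 0.00194; 0.0129 at most with any 1 array left out), and against control Scd3 fell by 0.41 ± 0.07 with SA (adjusted p = 0.0184) and differed by 0.07 ± 0.07 with PMA (0.6). Without PMA replicates 1 and 4 the difference was -0.53 ± 0.09 (0.0349). The isoforms Scd1 and Scd2, at levels of 12.93 and 12.40 with SA, differed by 0.01 and -0.04, with 95% intervals from -0.09 to 0.11 and from -0.14 to 0.05. Of 21 desaturases and elongases 1, Scd3, was called, with a median of -0.04. Elovl6, which elongates palmitate to stearate, differed by -0.16 (adjusted p = 0.475), Fads1 by -0.03 (0.883), Fads2 by -0.06 (0.711) and Fads3 by -0.20 (0.164).

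Acox2 and Abhd6 were higher with PMA. Acox2, a peroxisomal oxidase of branched acyl chains, read 6.89, 7.19, 7.03 and 7.07 with SA and 7.68, 7.36, 7.46 and 7.57 with PMA, a difference of -0.47 ± 0.08 (adjusted p = 0.00605). Abhd6, a monoacylglycerol lipase (chosen after its values were seen), read 8.42 to 8.53 and 8.82 to 8.98 and differed by -0.40 ± 0.05 (adjusted p = 0.000988). Neither Acox2 nor Abhd6 passed without PMA replicates 1 and 4 (adjusted p = 0.307 and 0.0551). Abhd6 and Acox2 lie near each other in the genome with 5 protein-coding genes between them, of which 4 were measured: Rpp14, Pxk, Pdhb and Kctd6 differed by 0.01, -0.03, -0.13 and -0.00, and none passed (adjusted p = 0.475 or more). Of the targets of the fatty acid receptor PPAR, 17 measured, 0 were called and the median was -0.03. Mitochondrial fatty acid oxidation (22 genes, median 0.04), lipid droplet coats and lipases (19 genes, 0.01) and cholesterol synthesis (19 genes, 0.02) also had 0 calls. Of the 19 cholesterol genes 13 lay above 0, 18 after cyclic loess, 18 after centring and 15 without PMA replicates 1 and 4. The shares of all genes below 0 were 74.9%, 50.3%, 50.3% and 47.1% in the same order.

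A panel of 24 genes was read, from lipid synthesis and storage to hormones and stress, with Egr1 and the proteoglycan Fmod among them. Of 23 measured, 5 were called, beside 0.244% of all genes, but the panel was chosen with earlier results of these data known. The other 18 had differences from -0.16 to 0.23 with 95% intervals reaching from -0.32 to 0.39. For 15 of these 18 the interval lay within 1.2-fold either way. Fasn, the fatty acid synthase, differed by -0.01 (interval -0.11 to 0.10), the droplet coat protein Plin2 by 0.00 (-0.09 to 0.10), the fatty acid transporter Cd36 by -0.03 (-0.15 to 0.08) and Cpt1a, the gate to mitochondrial oxidation, by -0.03 (-0.13 to 0.08). Ffar4, a receptor for long-chain fatty acids, had the largest of these differences, 0.23 (interval 0.07 to 0.39, adjusted p = 0.392). Egr1, an immediate early transcription factor, was lower than control with both acids (-0.60 ± 0.07 with SA, adjusted p = 0.00023, and -0.57 ± 0.07 with PMA, 0.000502) and differed between them by -0.03, with an interval from -0.17 to 0.11.

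BC023105, a gene named from its cDNA, had the largest difference of all. It read 4.64, 4.83, 4.48 and 4.72 with SA and 5.41, 5.69, 5.81 and 5.79 with PMA. PMA replicate 1 was the lowest of its group and still above all SA arrays. The difference was -1.01 ± 0.09, 2.01-fold higher with PMA (adjusted p = 2.2e-06; 3.27e-05 at most with any 1 array left out, and -1.08 ± 0.09 without PMA replicates 1 and 4). Its mean was 5.03 in control, 4.62 with PA and 4.65 with OA. PMA was above control by 0.64 ± 0.09 (adjusted p = 0.00124), and PA and OA lay below PMA by -1.06 (8.35e-07) and -1.02 (6.92e-06). SA and PA differed by 0.05 (adjusted p = 0.775).

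Transport and signalling genes followed. Abcc4, an efflux pump for cyclic nucleotides and prostaglandins, read 7.59, 7.62, 7.70 and 7.59 with SA and 8.33, 7.97, 8.23 and 8.18 with PMA. It differed by -0.55 ± 0.06, 1.47-fold higher with PMA (adjusted p = 0.000131; -0.48 ± 0.07 and 0.0174 without PMA replicates 1 and 4), and was above control with PMA by 0.31 ± 0.06 (0.0444). Agtr2, an angiotensin II receptor, read 7.60, 7.32, 7.27 and 7.56 with SA and 7.93, 8.17, 7.94 and 7.98 with PMA. Its difference was -0.57 ± 0.11 (adjusted p = 0.0191; lost with any 1 of 4 arrays left out, at most 0.14 without SA replicate 3), and together with Lep it made the 2 calls, in opposite directions, among 19 adipokine and hormone genes. Osr2, a zinc finger factor of mesenchymal development, read 8.30 to 8.60 with SA and 8.89 to 9.18 with PMA and differed by -0.53 ± 0.10 (adjusted p = 0.0215; at most 0.162, without SA replicate 3, among the 6 arrays whose removal ended the call). Agtr2 and Osr2 did not pass after cyclic loess (adjusted p = 0.0536 and 0.0543) or without PMA replicates 1 and 4 (0.229 and 0.36).

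Prg4 and Itih4, both secreted proteins, were lower with SA. Prg4, the lubricating proteoglycan of joints, read 8.08, 7.88, 7.62 and 7.61 with SA and 8.60, 8.34, 8.54 and 8.45 with PMA. The difference was -0.69 ± 0.11, 1.61-fold (adjusted p = 0.00777), and Prg4 was below control with SA by -0.60 ± 0.11 (0.0329). Itih4, an acute phase protein of the inter-alpha-trypsin inhibitor family, read 7.62, 7.58, 7.26 and 7.26 with SA and 7.97, 7.71, 8.14 and 7.94 with PMA. SA replicates 1 and 2 were higher than replicates 3 and 4 and lay just under PMA replicate 2. Itih4 differed by -0.51 ± 0.09 (adjusted p = 0.00853; 0.0516 without SA replicate 3). Without PMA replicates 1 and 4 Prg4 and Itih4 did not pass (adjusted p = 0.229 for each).

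Lcn2, a lipocalin secreted by inflamed fat that binds bacterial iron carriers, read 8.53, 8.57, 8.39 and 8.34 with SA and 8.99, 8.76, 8.83 and 9.02 with PMA. It differed by -0.44 ± 0.09 (adjusted p = 0.039; lost with any 1 of 10 arrays left out, at most 0.185 without PMA replicate 1). Against control, which averaged 9.11, Lcn2 was lower with SA by -0.65 ± 0.09 (adjusted p = 0.00404) and differed by -0.21 ± 0.09 with PMA (0.269). Lcn2 and Itih4 were the 2 calls among 15 acute phase and complement genes, both higher with PMA, while the median of the list was 0.06, above that of all genes. Haptoglobin (Hp), 0.34 (adjusted p = 0.0514), and Steap4, a metalloreductase, 0.32 (0.218), had differences of the opposite sign. Sned1, a matrix protein, differed by -0.47 ± 0.10 (adjusted p = 0.0443; lost with any 1 of 14 arrays left out, at most 0.247 without SA replicate 3), and Mmp11, a matrix metalloproteinase, by -0.31 ± 0.06 (0.0433; lost with any 1 of 12, at most 0.227 without SA replicate 3). Mmp11 was the 1 call among 18 metalloproteinases and inhibitors (median -0.07). After cyclic loess Sned1 and Mmp11 did not pass (adjusted p = 0.119 and 0.0593), and without PMA replicates 1 and 4 neither these nor Lcn2 passed (0.272 for Sned1, 0.711 for Mmp11 and 0.847 for Lcn2).

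Cd68, a lysosomal glycoprotein used as a macrophage marker, was lower with SA. It read 6.29, 6.17, 5.96 and 5.95 with SA and 6.71, 6.46, 6.74 and 6.79 with PMA, and SA replicate 1 came nearest to PMA replicate 2. The difference was -0.58 ± 0.10, 1.49-fold higher with PMA (adjusted p = 0.00808; 0.0489 at most with 1 array left out, and 0.317 without PMA replicates 1 and 4). It was the 1 call among 13 macrophage markers, whose median difference was -0.04, as over all genes, with 10 of the 13 below 0. Cd14 averaged 4.45 with SA and 4.66 with PMA, a difference of -0.21 ± 0.07 (adjusted p = 0.405). Every PMA array lay above every SA array, as on 4.2% of all genes, but PMA replicate 2 (4.529) only just above SA replicate 4 (4.524). Lyz2 averaged 5.53 with SA and 5.74 with PMA, a difference of -0.22 ± 0.11 with overlapping arrays (adjusted p = 0.569). The defining receptors lay low under both acids: Adgre1 at 3.52 with SA and 3.53 with PMA, Csf1r at 4.66 and 4.70, Itgam at 4.15 and 4.27 and Ptprc at 4.67 and 4.66. Whether any such cells contributed to the Cd68 signal was not tested. In cultures measured whole, fewer cells of a kind and less RNA per cell cannot be told apart. Cd74, the invariant chain of antigen presentation (chosen after its values were seen), differed by -0.35 ± 0.06 (adjusted p = 0.0103; 0.0636 without SA replicate 3, 0.0879 after cyclic loess and 0.163 without PMA replicates 1 and 4), and 35 interferon-stimulated genes had 0 calls, with Ifit1 at 0.51 ± 0.20 (0.465) and Tap1 at -0.34 ± 0.07 (0.0516).

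Mitochondrial genes higher with PMA included Chchd10 and Cox6a2. Chchd10, a protein of the mitochondrial intermembrane space, read 7.08, 7.18, 6.83 and 7.12 with SA and 7.99, 7.49, 7.82 and 7.79 with PMA. The PMA arrays ran from 7.49 to 7.99 and PMA replicate 2, not one of the raised pair, was the lowest. The difference was -0.72 ± 0.09, 1.65-fold higher with PMA (adjusted p = 0.000742; 0.00574 at most with 1 array left out, and -0.61 ± 0.11 with 0.0506 without PMA replicates 1 and 4). Cox6a2, the muscle and brown fat form of a cytochrome oxidase subunit, differed by -0.42 ± 0.09 (adjusted p = 0.0433; lost with any 1 of 12 arrays left out, at most 0.227 without SA replicate 3), and by -0.26 ± 0.09 (0.936) without PMA replicates 1 and 4. It was the 1 call among 11 thermogenic genes. The 43 genes of the respiratory chain and ATP synthase had 0 calls and a median of -0.01. Hspb6, a small heat shock protein of muscle, read 9.43, 9.50, 9.23 and 9.56 with SA and 9.99, 9.71, 9.90 and 9.97 with PMA, a difference of -0.46 ± 0.08 (adjusted p = 0.00877; 0.053 without SA replicate 3 and 0.388 without PMA replicates 1 and 4).

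The integrated stress response is the programme that the transcription factor ATF4 runs when amino acids or protein folding fail. Its genes gave 1 call in each direction. Of 31 measured, Trib3 was called higher with PMA and Slc7a11 higher with SA, and the median was -0.08, against -0.04 for all genes. Trib3, a pseudokinase that curbs insulin signalling, read 8.98, 8.94, 8.88 and 9.11 with SA and 9.50, 9.21, 9.31 and 9.31 with PMA. It differed by -0.35 ± 0.07 (adjusted p = 0.0145; 0.112 without SA replicate 3, and lost also without SA replicate 2 or PMA replicate 1). Slc7a11, the cystine importer that feeds glutathione synthesis, read 7.89, 7.73, 7.92 and 7.87 with SA and 7.36, 7.44, 7.48 and 7.61 with PMA, the reverse order. Its difference was 0.38 ± 0.08 (adjusted p = 0.0482; lost with any 1 of 12 arrays left out, at most 0.227 without SA replicate 3). Wars, a tRNA synthetase, and Aldh18a1, of proline synthesis, differed by -0.27 and -0.18 and did not pass (adjusted p = 0.0581 and 0.291). Below 0 lay 28 of the 31 genes, 23 after cyclic loess and 24 without PMA replicates 1 and 4. The shares of all genes below 0 were 74.9%, 50.3% and 47.1% in the same order. Pck2, the mitochondrial phosphoenolpyruvate carboxykinase, is outside that list and was chosen after its values were seen; it differed by -0.29 ± 0.05 (adjusted p = 0.00989; 0.0581 without SA replicate 3). None of Trib3, Slc7a11 and Pck2 passed without PMA replicates 1 and 4 (adjusted p = 0.444, 0.36 and 0.36).

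The promoters of Trib3, Pck2, Slc7a11 and Chchd10 are shown because all 4 genes were called, in opposite directions, and all hold the letters TGATGNAA, a form of the composite element to which ATF4 and its partners are known to bind. Each run covers 250 bases before to 50 after the start site (RefSeq, GRCm38.p6), on the gene's own strand: Trib3 at chr2:152344011-152344310 (minus strand), Pck2 at chr14:55540016-55540315 (plus), Slc7a11 at chr3:50443564-50443863 (minus) and Chchd10 at chr10:75932880-75933179 (plus). Capitals mark TGATGNAA or its reverse complement.
Trib3: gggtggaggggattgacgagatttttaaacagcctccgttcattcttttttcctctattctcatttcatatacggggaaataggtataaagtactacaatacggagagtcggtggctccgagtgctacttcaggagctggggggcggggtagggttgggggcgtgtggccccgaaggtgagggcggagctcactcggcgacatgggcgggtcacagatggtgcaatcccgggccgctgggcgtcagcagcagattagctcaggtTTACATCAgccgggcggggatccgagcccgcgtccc
Pck2: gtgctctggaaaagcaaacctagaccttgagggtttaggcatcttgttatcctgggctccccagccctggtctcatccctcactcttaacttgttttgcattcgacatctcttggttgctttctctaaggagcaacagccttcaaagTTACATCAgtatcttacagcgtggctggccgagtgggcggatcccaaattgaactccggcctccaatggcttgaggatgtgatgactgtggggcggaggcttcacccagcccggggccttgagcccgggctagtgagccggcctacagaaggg
Slc7a11: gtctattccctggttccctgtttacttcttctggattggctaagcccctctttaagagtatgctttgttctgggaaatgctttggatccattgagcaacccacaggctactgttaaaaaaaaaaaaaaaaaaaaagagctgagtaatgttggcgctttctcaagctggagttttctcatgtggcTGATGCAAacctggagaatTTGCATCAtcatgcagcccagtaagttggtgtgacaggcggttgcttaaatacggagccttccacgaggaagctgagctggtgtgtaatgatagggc
Chchd10: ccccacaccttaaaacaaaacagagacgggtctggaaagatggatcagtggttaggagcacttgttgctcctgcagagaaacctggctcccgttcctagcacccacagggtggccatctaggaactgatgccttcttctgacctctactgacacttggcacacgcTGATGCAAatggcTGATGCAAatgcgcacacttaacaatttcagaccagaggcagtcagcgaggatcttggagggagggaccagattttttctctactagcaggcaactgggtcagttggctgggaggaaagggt
Trib3 and Pck2 held 1 match each, both as TTACATCA on the opposite strand, and Slc7a11 and Chchd10 2 each. The element lay in 3.97% of the 32851 promoters of the table. Of the genes tested here that had a promoter entry, 3.63% held it, as did 3 of 21 called higher with PMA (Chchd10, Pck2 and Trib3) and 1 of 10 called higher with SA (Slc7a11). Chchd10 and Mmp11 are neighbours that are read in opposite directions from start sites 628 bases apart, and the window of Mmp11 (chr10:75932453-75932752, minus strand) held no match. A match is a string of letters and not a measured binding site.

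Targets of NRF2, the transcription factor of the antioxidant response, gave 1 call in each direction among 23 measured, Slc7a11 and Abcc4, with a median of -0.09. Of these 23 genes 20 lay below 0, 18 after cyclic loess, 16 after centring and 19 without PMA replicates 1 and 4. Over all genes the shares below 0 were 74.9%, 50.3%, 50.3% and 47.1%. Nqo1, a quinone reductase, differed by -0.28 ± 0.08 (adjusted p = 0.271). Feedback genes of the ERK kinase pathway had differences of 1 sign. Of 17 measured, 1 passed, Spry2, at -0.21 ± 0.05 (adjusted p = 0.0484), which was lost with any 1 of 17 arrays left out (at most 0.185, without PMA replicate 1) and did not pass after loess (0.088) or without PMA replicates 1 and 4 (0.596). Spry2 read 7.69, 7.68, 7.68 and 7.64 with SA and 7.91, 7.84, 7.88 and 7.91 with PMA, close within each group. All 17 genes had a difference below 0, as did 74.9% of all genes, and the list's median was -0.10. After loess or centring 15 of the 17 lay below 0, beside 50.3% of all genes in each setting. Without PMA replicates 1 and 4 all 17 lay below 0, with a median of -0.06, beside 47.1% of all genes. Spry1 and Dusp6, both inhibitors of the pathway, differed by -0.18 and -0.20 (adjusted p = 0.285 and 0.374). Chaperones of the endoplasmic reticulum and XBP1 targets, 25 genes with Hspa5 at -0.06, had 0 calls.

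**Figure D3:**
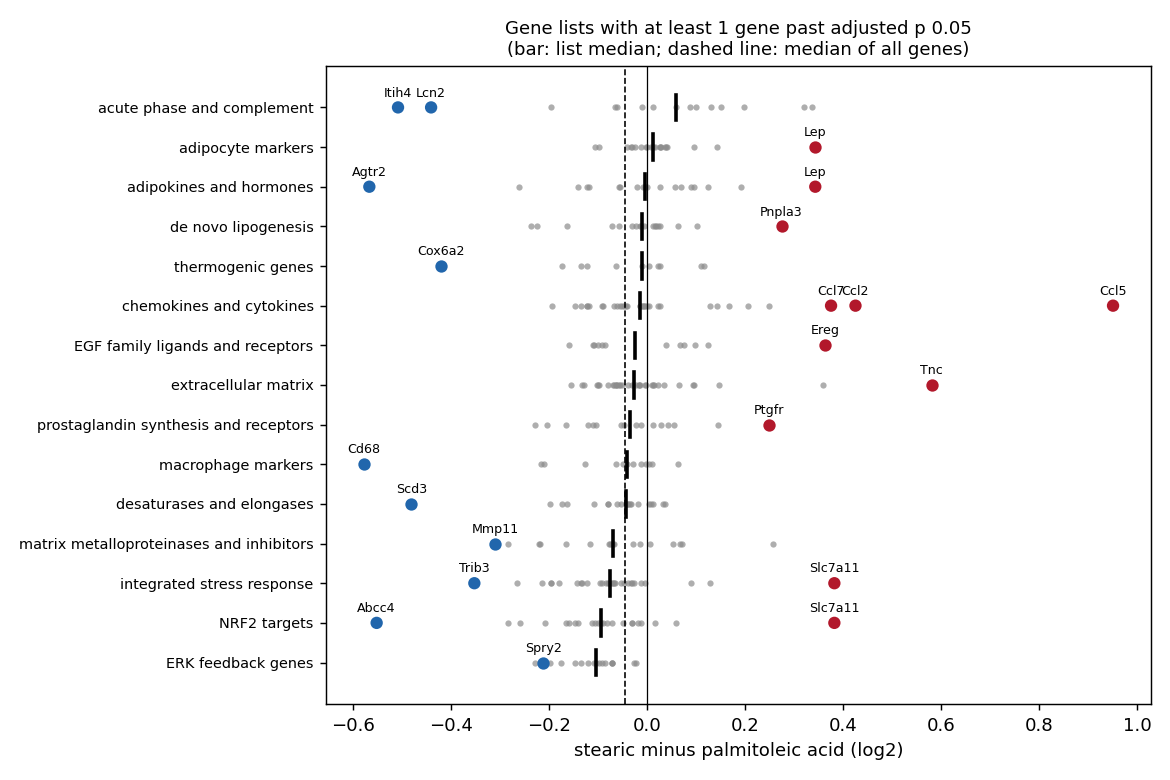
Differences between stearic and palmitoleic acid (log2) of every measured member of the 15 lists with at least 1 called gene; coloured points passed an adjusted p of 0.05, black bars are list medians and the dashed line is the median of all genes, -0.04. List medians stay between -0.10 and 0.06, and no list has more than 3 called genes.

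In all, 41 lists with 796 distinct measured genes were counted. They held 19 of the 46 called genes, 27 called genes were in none, and 26 lists had 0 calls, with medians from -0.07 to 0.04.

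Control places each acid of the pair, and both comparisons share the control arrays, so their values are only set side by side. The genes below were also chosen by SA minus PMA on these same SA and PMA arrays. A larger share called against control than over all genes is therefore partly built in by that choice. Of the 29 genes higher with PMA, 3 were called above control with PMA and 6 below control with SA. Of the 17 higher with SA, 2 were called below control with PMA and 4 above control with SA. Over all genes 31 (0.165%) were called with SA (0.106% above and 0.0584% below control) and 50 (0.266%) with PMA (0.191% above and 0.0744% below). Called with SA were Prg4, Itih4, Scd3, Lcn2, Cox6a2 and Abhd6, which fell, and Fam171b (0.42, adjusted p = 0.0389), Il2ra (0.39, 0.0184), B3galt2 (0.35, 0.0123) and Ptgfr (0.25, 0.0375), which rose. Called with PMA were BC023105, Abcc4 and Cdh13 (0.24, 0.0463), which rose, and Ccl7 and Wfdc21 (-0.34, 0.00906), which fell. Cdh13, an adiponectin-binding cadherin, and Wfdc21 were chosen after their values were seen. Their SA minus PMA calls were lost without PMA replicates 1 and 4 (adjusted p = 0.317 and 0.0868). Calls against control were not repeated without PMA replicates 1 and 4. With PMA, Abcc4 (adjusted p = 0.0444) and Cdh13 lay just under the threshold. Ccl5, with the largest SA over PMA difference, differed from control by 0.54 ± 0.13 with SA and by -0.41 ± 0.13 with PMA (adjusted p = 0.103 and 0.142), so that neither acid alone was called.

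**Figure D4:**
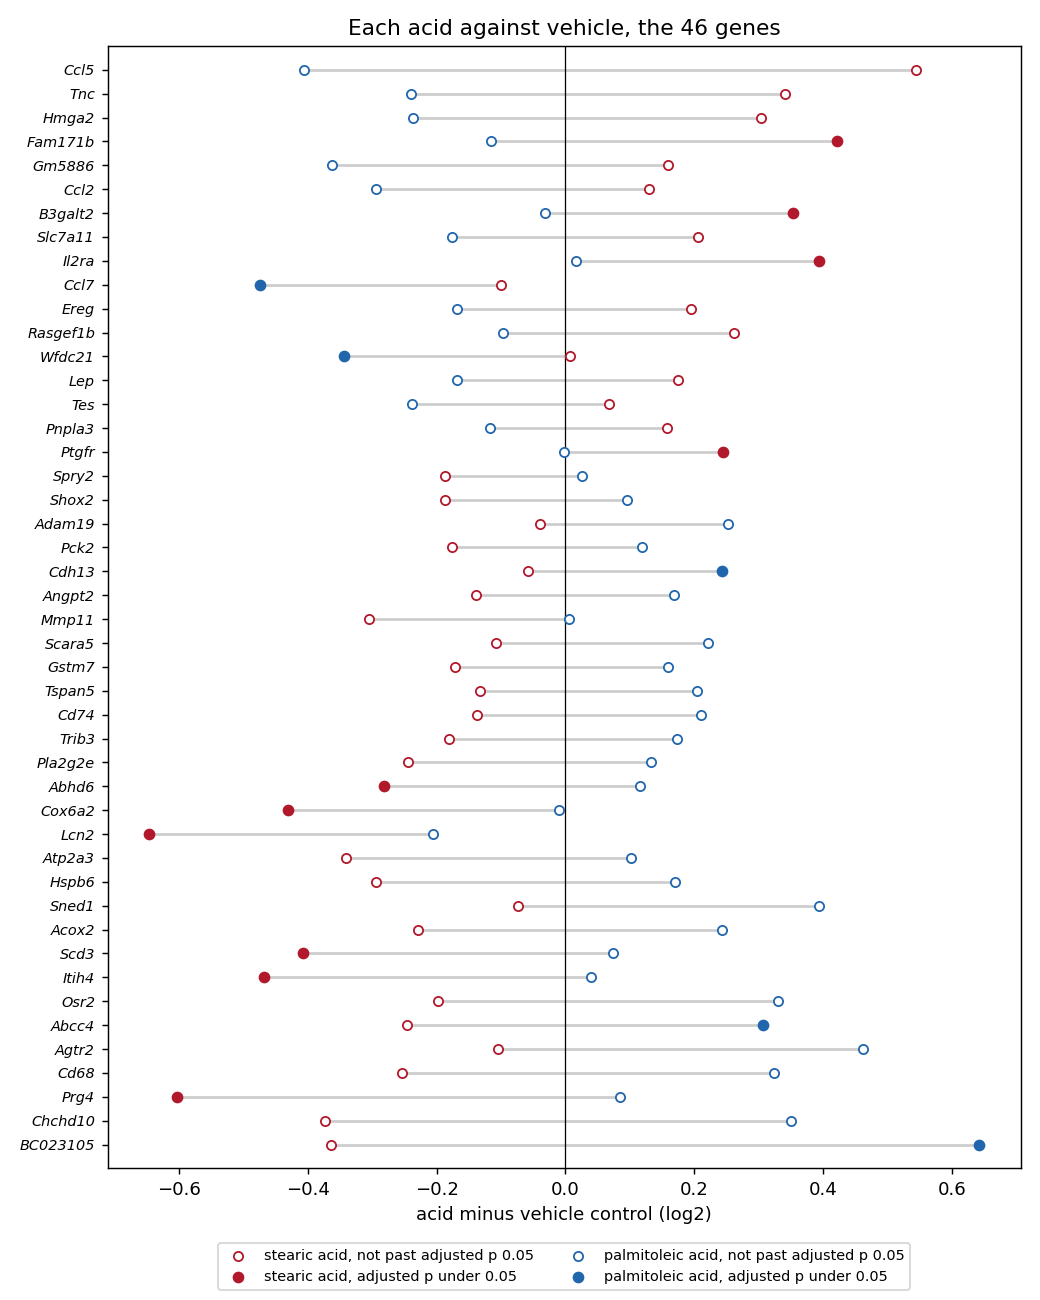
Difference of stearic acid (red) and of palmitoleic acid (blue) from vehicle control (log2, horizontal axis) for the 46 genes called between the acids, ordered by that difference; filled points passed an adjusted p of 0.05. BC023105 lies at 0.64 with palmitoleic and -0.36 with stearic acid, and Ccl5 at -0.41 and 0.54.

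Since SA and PMA differ in chain length and in the double bond, the 46 genes were set beside palmitic minus oleic acid (PA minus OA), which shares no array with SA minus PMA, although all 19 arrays were normalised together and gave 1 estimate of the spread. There too the saturated acid is set against the monounsaturated one, but now the saturated acid is the shorter. Of the 46 genes 14 were called in PA minus OA, against 362 of all genes (1.92%). On the same side as in SA minus PMA lay 20 genes and on the opposite side 26, and over all genes 42.5% had the same sign. Of the 14 called, 7 were on the same side and 7 on the opposite side.

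Higher with the saturated acid of both pairs were Ccl5 (1.15 ± 0.14 in PA minus OA, adjusted p = 0.000124), Slc7a11 (0.39 ± 0.09, 0.0263), Ereg (0.36 ± 0.08, 0.0288), Wfdc21 (0.36 ± 0.06, 0.00416) and Tes, a focal adhesion protein chosen after its values were seen (0.28 ± 0.06, 0.0218). Higher with the monounsaturated acid of both were Agtr2 (-0.56 ± 0.12, adjusted p = 0.0176) and Osr2 (-0.43 ± 0.11, 0.0447). Ccl5 read 7.21, 6.40, 6.65 and 6.56 with PA and 5.64, 5.68 and 5.36 with OA. All PA arrays lay above all OA arrays, as the SA arrays did above the PMA arrays. The SA minus PMA call of Tes (0.30 ± 0.06) was lost without PMA replicates 1 and 4 (adjusted p = 0.194).

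On opposite sides in the pairs, and so higher with the 18-carbon acid of each, were Il2ra (-0.42 ± 0.07 in PA minus OA, adjusted p = 0.00445), B3galt2 (-0.37 ± 0.06, 0.00354) and Pnpla3 (-0.22 ± 0.05, 0.0367). Higher with the 16-carbon acid of each were Lcn2 (0.79 ± 0.10, adjusted p = 0.000182), Prg4 (0.57 ± 0.12, 0.0225), Mmp11 (0.43 ± 0.07, 0.00416) and Trib3 (0.35 ± 0.07, 0.0159). Lcn2 averaged 8.46 with SA and 8.07 with OA, and 8.90 with PMA and 8.86 with PA. Chchd10, the neighbour of Mmp11, differed by 0.38 ± 0.10 in PA minus OA and sat at the threshold (adjusted p = 0.05). BC023105 differed there by -0.04 ± 0.09 (adjusted p = 0.826), and Fam171b by -0.07 ± 0.09 (0.671).

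**Figure D5:**
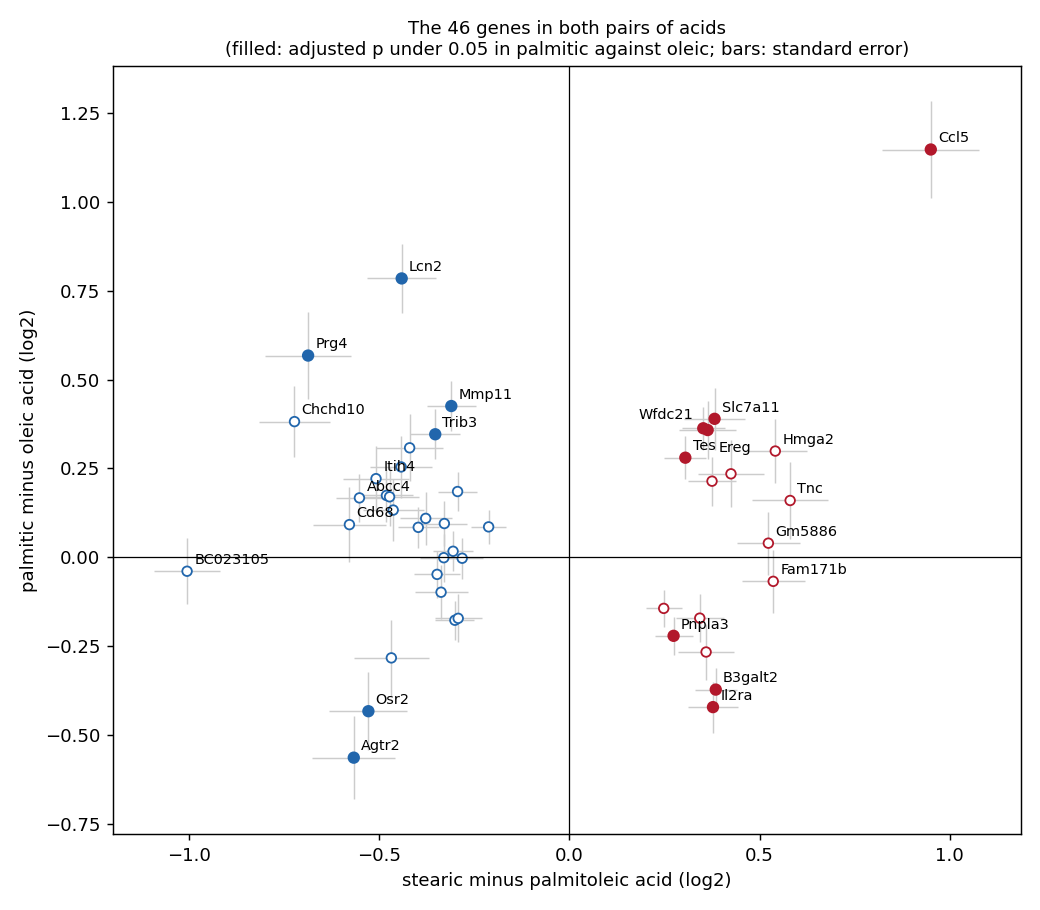
Palmitic minus oleic acid (log2, vertical axis) against stearic minus palmitoleic acid (log2, horizontal axis) for the 46 genes called in the latter; bars are standard errors and filled points passed an adjusted p of 0.05 in palmitic minus oleic acid. Ccl5 lies alone at the upper right (0.95 and 1.15), Lcn2 and Prg4 at the upper left, and BC023105 at the far left near 0.

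The counts of called genes in PA minus OA were smaller without PA replicates 2 and 4. These arrays stood lowest on the first principal component (-27.4 and -13.8). Without them 71 of all genes (0.377%) and 8 of the 46 were called, 4 on each side. With cyclic loess 17 of the 46 were called, 8 on the same side and 9 on the opposite side, beside 555 of all genes. With 1 array left out at a time, the PA minus OA count over all genes ran from 53 (without OA replicate 3) to 1541 (without PA replicate 1).

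Either of the other acids leads from SA to PMA in steps that change 1 feature each, and the steps share arrays with SA minus PMA. SA minus PA, which differ by 2 carbons and have no double bond, was called for 27 genes (0.143%). PA minus PMA, which differ by the double bond at 16 carbons, was called for 181 (0.962%). SA minus OA, by the double bond at 18 carbons, was called for 6 (0.0319%). OA minus PMA, by 2 carbons with a double bond in both, was called for 10 (0.0531%). These step counts were not repeated without the raised PMA pair or the PA pair lowest on the first principal component. Without the PMA pair the SA minus PMA count fell from 46 to 6. Without the PA pair the PA minus OA count fell from 362 to 71. The steps through OA also rest on 3 OA arrays. The step counts therefore cannot show at which chain length the double bond mattered more. Ccl5 differed by -0.23 (adjusted p = 0.38) in SA minus PA and by 1.18 (4.39e-05) in PA minus PMA, and by 0.92 (0.0116) in SA minus OA and 0.03 (0.958) in OA minus PMA. Il2ra differed by 0.44 (0.00587), -0.07 (0.642), 0.02 (1) and 0.36 (0.0833) in the same order. Hmga2 differed by 0.22 (0.235) and 0.32 (0.0596) by way of PA, and by 0.52 (0.0368) and 0.02 (0.955) by way of OA.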

How the data were processed

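Each deposited value is a log2 expression level of 1 probe set, made by the authors with RMA, per the submitters' processing notes (R 2.15.0, affy 1.34.0); scan files were not used here. The genome build of the array annotation is not given in the sources used here. Of 35556 probe sets 21218 had 1 gene symbol, 1881 several and 12457 none. Each of 18820 genes took its probe set with the highest mean, and dim genes were kept; 1386 genes had more than 1 probe set. limma 3.58.1 under R 4.3.3 fitted a mean for each of the 5 groups over all 19 arrays (lmFit, then eBayes with neither trend nor robust setting), and the code was tested on simulated data. Tests were two-sided, Benjamini-Hochberg adjustment ran over all genes, and the threshold was 0.05; errors are standard errors and intervals 95%. The number of arrays limits the precision. Named genes were the 12 largest called differences in each direction, the leading 4 at most of each list described, and a panel of 24. The comparison, lists, panel and rule were chosen with earlier results of these data known. PA minus OA, and leaving out PMA replicates 1 and 4 or PA replicates 2 and 4, were added after seeing the data. Alternatives were gene filters, probe set summaries, loess, centring, array weights, a trended robust spread, a replicate block, only the 8 arrays, and each array left out.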

Additional observations from a re-analysis of the deposited data

Results flagged for a closer look

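Single arrays far from the other 3 of their group were looked for in the SA and PMA groups of the genes named in the text. The gap to the nearest array exceeded the critical value of Dixon's test at 95%, as a share of the group's range, in 5 of 172 groups, and chance gives about 1 in 20. Scd3 read 9.24 on PMA replicate 3, above 9.01 to 9.04 on the others. Pla2g2e, a secreted phospholipase, read 8.75 on SA replicate 3, below 8.98 to 9.02. Fmod, a collagen-binding proteoglycan, read 6.61 on SA replicate 2, above 6.38 to 6.41. Il33 read 4.79 on SA replicate 4, below 4.87 on each of the others. Steap4 read 7.82 on PMA replicate 1, below 8.15 to 8.18.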

How the results depend on the processing

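With all arrays 46 genes passed. The count was 83 with array weights, 69 with a trended robust spread, 6 without PMA replicates 1 and 4 (added after seeing the data) and 20 to 59 with 1 array left out (lowest without SA replicate 3, highest without PA replicate 2); the other alternatives gave 37 to 60. The replicate number as a block gave 37 genes, 35 of them among the 46. Only the 8 SA and PMA arrays gave 40 genes, 33 of them among the 46. The 13 that lost their calls there were Itih4, Cdh13, Pck2, Pnpla3, Trib3, Gstm7, Ptgfr, Ccl2, Tspan5, Cox6a2, Mmp11, Spry2 and Adam19. Same-numbered SA and PMA arrays deviated with correlations of -0.22, 0.06, -0.03 and -0.11, and 1 of 4 SA arrays correlated best with its own number. These values cannot exclude a shared culture or day, on which the labels say nothing. The main fit did not pair the arrays. The called genes kept their direction under all alternatives run. Signs turned for uncalled genes near 0. Centring gave 0.00068 for Scd2, 0.038 for Fasn, 0.012 for Fads1, 0.018 for Cpt1a, 0.018 for Pdk4, 0.012 for Cd36 and 0.017 for Egr1. Loess gave 0.013 for Fasn, 0.0089 for Cpt1a, 0.013 for Pdk4 and 0.015 for Egr1, and array weights 0.0092 for Fasn and 0.015 for Pdk4. Leaving out PMA replicates 1 and 4 gave 0.0046 for Fasn, 0.0098 for Fads1, 0.056 for Pdk4 and 0.044 for Egr1. With 1 array left out Scd1 ran from -0.0063 to 0.033, Fasn from -0.034 to 0.035, Cpt1a from -0.064 to 7.86e-05, Pdk4 from -0.11 to 0.048, Plin2 from -0.016 to 0.029 and Egr1 from -0.062 to 0.034. The causes were not tested. With 4 arrays a group and a median standard error of 0.07, small differences stay undetectable, and the labels give no batch or date.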

Other observations

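Called genes outside the naming rule, chosen after their values were seen, add a few functions. Higher with PMA were Atp2a3, a calcium pump of the endoplasmic reticulum (-0.44 ± 0.08, adjusted p = 0.0143), Scara5, a scavenger receptor that takes up ferritin (-0.33 ± 0.06, 0.013), Gstm7, a glutathione transferase (-0.33 ± 0.06, 0.0187), Angpt2, a vessel growth factor (-0.31 ± 0.05, 0.00877), and Shox2, a homeobox factor (-0.28 ± 0.05, 0.0191). Angpt2 lay low, at 4.48 to 4.65 with SA and 4.83 to 4.86 with PMA, and its call held with any 1 array left out (adjusted p at most 0.0431) but not after cyclic loess (0.088). The calls of Atp2a3, Gstm7 and Shox2 were each lost with any 1 of 5 arrays left out and that of Scara5 with any 1 of 4. None of these 5 genes passed without PMA replicates 1 and 4 (adjusted p = 0.559 for Atp2a3, 0.36 for Scara5, 0.286 for Gstm7, 0.212 for Angpt2 and 0.317 for Shox2).

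Among genes that did not pass, Acta2, the smooth muscle actin, differed by 0.30 ± 0.07 (adjusted p = 0.101), and Bcat1, which starts the breakdown of branched-chain amino acids, by 0.28 ± 0.06 (0.0653). Both were above control with SA, by 0.36 (0.0389) and 0.33 (0.0329). Cpe, a prohormone carboxypeptidase, differed by -0.26 ± 0.06 (0.106) and was above control with PMA by 0.41 (0.00461). Of the 14338 probe sets with no symbol or several, limma called 0 between SA and PMA, and 706 had an unadjusted p under 0.05.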
